A study of Mus musculus with 15 samples.

Results

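The MYC network of basic helix-loop-helix leucine zipper transcription factors was followed through cultures of mouse oligodendrocyte precursor cells (OPCs) and oligodendrocytes (OLs) whose Srf gene had or had not been removed. Its members were 10 genes found by symbol: Myc, Mycn, Mycl, Max, Mxd1, Mxd3, Mxd4, Mxi1, Mnt and Mga. They are 10 of the 45706 genes in the deposited tables. The set was chosen by the counts of SRF-KO against control OPCs, for the higher Mxd4 in SRF-KO OPCs, so the members' values in that comparison are given here as a description with no test.

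MAX is the shared partner of the network. MYC, MYCN and MYCL bind the E-box CACGTG as dimers with MAX and act as activators of genes for growth, ribosome assembly and division, while MXD1, MXD3, MXD4, MXI1 and MNT compete for MAX (MXD1, MXD4 and MNT can also pair with the related MLX) and bring the SIN3-HDAC corepressors to the same sites. MGA pairs with MAX as well and belongs to a polycomb complex, PRC1.6. In the oligodendrocyte lineage MYC is known for keeping precursors dividing, and MXD proteins are known in many tissues for being made as cells leave the cycle. SRF, the deleted factor, binds the CArG box in genes of the actin cytoskeleton and of the immediate-early response.

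RNA came from 15 libraries: 4 of SRF-KO OLs, 4 of control OLs, 3 of SRF-KO OPCs and 4 of control OPCs. All cells carried Srf-floxed/floxed alleles, which Cre recombinase can excise, and were purified from mouse brain by immunopanning on antibody-coated dishes. For the OLs, lentivirus-CRE-IRES-GFP (SRF-KO) or a lentivirus with GFP alone (control) was added on day 6 of culture, and cells were frozen on day 3 of differentiation. For the OPCs, AAV-CRE (SRF-KO) or AAV-deleted CRE (control), both with eGFP behind a CMV promoter, was added on culture day 3, and cells were frozen 48 hours later. No library here had Cre in cells without floxed alleles, so Cre itself and loss of Srf cannot be told apart. The treatment tag of the SRF-KO OLs names Cre but ends in "control", and the series' own design text names mesenchymal stem cells with Olig2-Cre, so the groups follow the sample titles. The labels do not say that libraries came from separate animals or cultures, and p-values therefore measure only the spread between these samples.

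Promoter windows of RefSeq on GRCm38.p6, 250 bases before to 50 after a gene's start, were at hand for 9 of the 10 members (11 windows), all but Myc. The E-box CACGTG, which reads the same on both strands, was in the windows of 3 members, Mxd4, Mnt and Max, and in 7.15% of 32851 windows of the same length over the genome. The CArG box was in 0 windows of the members and in 1.63% of all windows, while the window of Srf held 2. A match describes the letters only, and no match says only that these letters are not in the window. The whole window of Mxd4 is shown because Mxd4 chose the set, and that of Mycl because Mycl was the member farthest from its controls in SRF-KO OLs. For Mnt and Max, 60 bases around the E-box are shown. Each runs 5′ to 3′ on the strand of its gene, with the E-box in capitals. The Mxd4 window lies at chr5:34187661-34187960 (minus strand) with its E-box starting 219 bases before the start. The Mycl window lies at chr4:122995681-122995980 (plus strand) and holds no E-box. The Mnt stretch lies at chr11:74830774-74830833 (plus strand), E-box 123 bases before the start, and the Max stretch at chr12:76962219-76962278 (minus strand), E-box 3 bases before the start.
Mxd4: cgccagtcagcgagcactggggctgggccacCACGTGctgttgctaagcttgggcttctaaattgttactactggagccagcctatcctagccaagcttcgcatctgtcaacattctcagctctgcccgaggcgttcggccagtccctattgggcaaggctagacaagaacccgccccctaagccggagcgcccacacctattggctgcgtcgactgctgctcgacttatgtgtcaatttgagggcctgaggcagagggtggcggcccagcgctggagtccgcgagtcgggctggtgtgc
Mycl: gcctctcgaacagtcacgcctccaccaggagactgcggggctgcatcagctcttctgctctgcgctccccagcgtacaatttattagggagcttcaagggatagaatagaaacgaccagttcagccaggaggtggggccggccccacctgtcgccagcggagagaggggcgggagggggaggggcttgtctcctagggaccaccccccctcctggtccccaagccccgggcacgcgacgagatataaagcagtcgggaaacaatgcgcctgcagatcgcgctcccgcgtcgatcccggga
Mnt: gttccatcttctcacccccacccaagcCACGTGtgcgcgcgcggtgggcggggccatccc
Max: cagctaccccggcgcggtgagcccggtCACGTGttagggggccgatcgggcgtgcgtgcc

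Library totals of expected counts were 4303739 to 11721394 in SRF-KO OLs, 7188698 to 13139258 in control OLs, 9074812 to 15125229 in SRF-KO OPCs and 8964310 to 16026511 in control OPCs. Values below are normalised CPM, in which library totals were corrected by TMM factors within each stage. Srf stood at 2.68% of the control mean in SRF-KO OPCs and at 37.0% in SRF-KO OLs, with every knockout library below every control library of its stage. SRF-KO OL replicate 4 stood apart from the other SRF-KO OLs in several members and had the highest mitochondrial share of counts, 14.2%, so the OL fold changes of the members and the OL medians of the target lists are also given without it. SRF-KO OPC replicate 2 stood apart in Max. All 10 members passed the low-count filter in both stages. In bulk libraries, fewer cells of a type and less RNA per cell cannot be told apart.

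Mxd4 (ENSMUSG00000037235, chromosome 5, 34173883 to 34187720, minus strand, GRCm38, protein-coding), the MXD repressor that chose the set, was higher in each SRF-KO OPC library than in each control OPC library. It had 57.3, 65.5 and 59.5 CPM in the 3 SRF-KO OPC libraries, against 34.4, 34.8, 35.7 and 35.6 CPM in the 4 control OPC libraries. The groups did not overlap, and the control libraries lay close together. The means were 60.7 ± 4.27 CPM in SRF-KO OPCs (SD, n = 3) and 35.1 ± 0.618 CPM in control OPCs (SD, n = 4), and the knockout mean was 173% of the control mean. The log2 fold change was 0.79 (SE 0.095), and it stayed between 0.73 and 0.83 when any 1 library was left out. These values rest on 518 to 1001 expected counts per knockout library and 325 to 550 per control library.

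Mxd4 was the only member among the 9 genes (0.0678% of 13271 tested) past an edgeR adjusted p of 0.05 in this comparison, and nothing is read from that because the comparison chose it. It was past that threshold in 1 of the 7 fits that left out a library, the one without SRF-KO OPC replicate 2, and was not past it with the replicate number as a block. Groups did not overlap, with the knockout higher, for 5.97% of all genes tested. An antisense gene, Gm42846, lies opposite the last bases of Mxd4, and unstranded reads from the pair cannot be told apart. Gm42846 was listed at 0.479 to 1.6 CPM in SRF-KO OPCs and 0 to 1.11 CPM in control OPCs, far below Mxd4. The summed astrocyte markers (6 of 6 with counts) were 1084 to 1169 CPM in SRF-KO OPCs and 906.5 to 984.3 CPM in control OPCs. The summed OPC markers (8 of 8) were 4938 to 6439 CPM in SRF-KO OPCs and 6602 to 6948 CPM in control OPCs. Their part in the Mxd4 difference was not tested. Microglial markers summed to 0 CPM in every SRF-KO OPC library and at most 0.239 CPM in a control OPC library, and of the oligodendrocyte markers Mog and Opalin were at 0 in all SRF-KO OPCs.

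**Figure D1:**
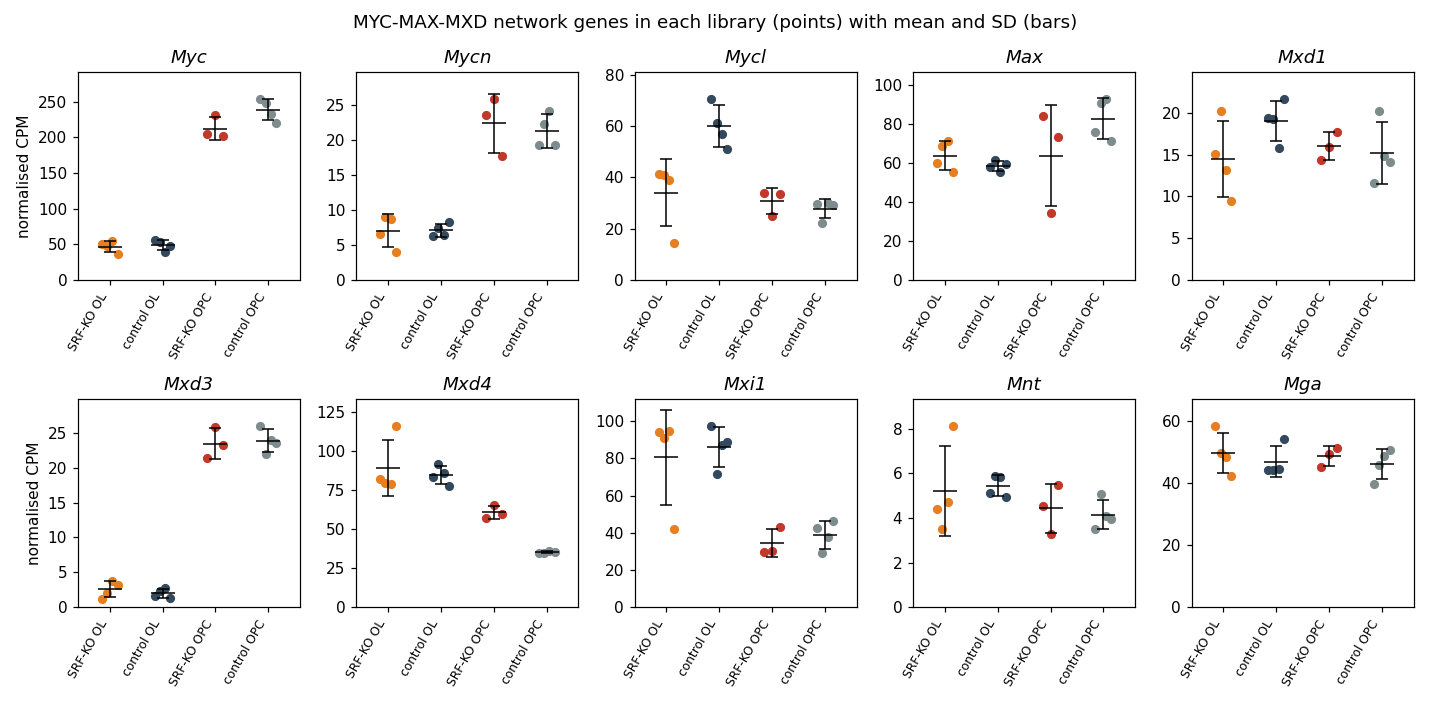
Normalised CPM (y axis, from 0, ranges differ) of each network gene in SRF-KO OLs, control OLs, SRF-KO OPCs and control OPCs. Points are libraries, and bars give the mean and SD. Mxd4 lies at 57.3 to 65.5 CPM in SRF-KO OPCs and 34.4 to 35.7 CPM in control OPCs, and Mycl at 14.3 to 41.4 CPM in SRF-KO OLs and 50.9 to 70.5 CPM in control OLs. CPM were scaled within a stage, so levels of OLs and OPCs are not on 1 scale.

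The activators differed little in CPM between SRF-KO and control OPCs. Myc (chromosome 15, 61985391 to 61990374, plus strand), the most abundant of the 3, had 204, 230.5 and 201 CPM in SRF-KO OPCs, against 254, 248, 233 and 220.0 CPM in control OPCs. Of the 3 knockout libraries, 2 lay below every control and replicate 2 lay within their range, and the log2 fold change was -0.17 (SE 0.086). Mycn had 23.5, 25.9 and 17.7 CPM in SRF-KO OPCs and 19.3, 22.3, 24.2 and 19.2 CPM in control OPCs. Mycl had 33.7, 25.0 and 33.4 CPM in SRF-KO OPCs and 29.8, 22.1, 29.9 and 29.3 CPM in control OPCs. For Mycn and Mycl the groups overlapped, with log2 fold changes of 0.08 (SE 0.16) and 0.14 (SE 0.15).

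Max, the partner shared by the activators and the repressors, had 83.8, 34.4 and 73.1 CPM in SRF-KO OPCs and 76.0, 90.7, 92.8 and 71.5 CPM in control OPCs. Replicate 2 alone lay below the controls. The log2 fold change was -0.38 (SE 0.24) with it and -0.08 without it, and that library also had the lowest summed OPC markers, 4938 CPM. The other repressive partners overlapped between SRF-KO and control OPCs in every case. Mxi1 had 29.6, 30.4 and 43.0 CPM in SRF-KO OPCs and 42.4, 29.1, 37.6 and 46.3 CPM in control OPCs. Mxd3, the MXD member known from dividing cells, had 21.4 to 25.8 CPM in SRF-KO OPCs and 22.0 to 26.0 CPM in control OPCs. Mxd1 had 14.4 to 17.7 CPM in SRF-KO OPCs and 11.6 to 20.3 CPM in control OPCs. Among these partners, log2 fold changes lay between -0.18 for Mxi1 and 0.08 for Mnt and Mga. The SE of Mnt, at 3.27 to 5.48 CPM in SRF-KO OPCs and 3.51 to 5.07 CPM in control OPCs, was 0.28, so this low gene gives the least precise value.

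Per transcript length, on the deposited TPM scale, Myc stood above every other member in both groups of OPCs. Its level was 144 ± 10.6 TPM in SRF-KO OPCs (SD, n = 3) and 170 ± 8.95 TPM in control OPCs (SD, n = 4). These TPM did not overlap, at 135.6 to 155.7 in SRF-KO OPCs and 161.3 to 182.5 in control OPCs, whereas the CPM of Myc did. How many of all genes separate in TPM was not counted. Next in the order came Max, Mxd3 and Mxd4. Max had 48.0 ± 20.0 TPM in SRF-KO OPCs and 65.4 ± 11.5 TPM in control OPCs. Mxd3 had 28.2 ± 2.38 TPM in SRF-KO OPCs and 30.0 ± 2.67 TPM in control OPCs, and Mxd4 had 26.5 ± 3.00 TPM in SRF-KO OPCs and 18.4 ± 3.57 TPM in control OPCs. In SRF-KO OPCs the libraries of Max, Mxd3 and Mxd4 overlapped along this order, whereas in control OPCs each of the 3 was clear of the next except Mxd4, which overlapped Mycn. Mxd1 at 4.72 TPM and Mnt at 1.33 TPM were the lowest in SRF-KO OPCs, as they were at 4.73 and 1.31 TPM in control OPCs.

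Mxd4 thus made up 32.4 ± 1.47% of the summed TPM of the 6 repressive partners in SRF-KO OPCs and 24.4 ± 1.82% in control OPCs (SD, n = 3 and 4). The ratio of Mxd4 to Myc in TPM was 0.170 to 0.202 in SRF-KO OPCs and 0.0869 to 0.125 in control OPCs. Both ratios contain the value that chose the set and are a description. The listed length of Mxd4 varied from 2599 to 3465 bases between OPC libraries, since RSEM weighs a gene's transcripts anew in each library, and this moves TPM but not CPM.

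In OLs, which the choice of Mxd4 did not use, 0 of the 10 members passed an edgeR adjusted p of 0.05 between SRF-KO and control, beside 45 of all 15193 genes tested (0.296%). DESeq2 called 0 members too, and 1 member, Mycl, had an unadjusted edgeR p under 0.05, as did 11.6% of all genes. Mxd4 had 82.2, 79.8, 79.2 and 116 CPM in SRF-KO OLs, against 83.5, 91.6, 86.2 and 77.6 CPM in control OLs. Of the 4 knockout libraries, 3 lay within the control range and replicate 4 lay above every control. The log2 fold change was 0.07 (SE 0.16, edgeR adjusted p = 0.913) and turned to -0.10 without SRF-KO OL replicate 4. Mxd4 was thus at 105% of the control mean in SRF-KO OLs and at 173% in SRF-KO OPCs, and the difference between these effects was not tested. Infection, time after it, residual Srf and quantification all differed between the stages. Gm42846, opposite Mxd4, had 1.45 to 6.60 CPM in SRF-KO OLs and 0 to 1.97 CPM in control OLs.

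Mycl (ENSMUSG00000028654, chromosome 4, 122995652 to 123002485, plus strand), the activator known from small cell lung cancer, was the member farthest from its controls. It had 41.4, 40.7, 39.1 and 14.3 CPM in SRF-KO OLs, against 70.5, 61.3, 56.9 and 50.9 CPM in control OLs. All 4 knockout libraries lay below all 4 controls, as held in this direction for 3.89% of all genes tested. The knockout mean was 56.6% of the control mean, with a log2 fold change of -0.81 (SE 0.27), and edgeR's adjusted p of 0.273 missed the threshold. Without SRF-KO OL replicate 4 the log2 fold change was -0.59 (SE 0.11) and the edgeR adjusted p was 0.0176, in a fit where 4.12% of all genes passed. Over all settings tried the adjusted p of Mycl ran from 0.0176 to 0.638. Mycl rested on 76 expected counts in SRF-KO OL replicate 4 and on 190 to 758 in the other 7 OL libraries.

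The remaining activators lay close to their controls in OLs. Myc had 49.7, 46.8, 54.1 and 35.8 CPM in SRF-KO OLs and 55.5, 52.6, 39.6 and 47.0 CPM in control OLs, with a log2 fold change of -0.06 (SE 0.16, edgeR adjusted p = 0.928). Mycn had 6.52, 9.02, 8.64 and 3.96 CPM in SRF-KO OLs and 6.33, 7.38, 6.43 and 8.31 CPM in control OLs, with a log2 fold change of -0.01 (SE 0.23, edgeR adjusted p = 0.995). In all 3 activators SRF-KO OL replicate 4 was the lowest library of its stage. Max had 55.5 to 71.4 CPM in SRF-KO OLs and 55.4 to 61.7 CPM in control OLs, with a log2 fold change of 0.12 (edgeR adjusted p = 0.789).

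Among the other partners in OLs, Mxi1 repeated the pattern of 1 library apart. It had 94.3, 90.9, 94.9 and 41.9 CPM in SRF-KO OLs and 97.3, 71.8, 87.0 and 88.8 CPM in control OLs, and its log2 fold change was -0.10 (SE 0.23, edgeR adjusted p = 0.926). Mxd1 had 15.1, 20.3, 13.2 and 9.43 CPM in SRF-KO OLs and 19.4, 19.2, 15.8 and 21.7 CPM in control OLs. Its log2 fold change was -0.37 (SE 0.20, edgeR adjusted p = 0.545), and 1 knockout library lay above 3 of the controls. Mnt, at 3.52 to 8.11 CPM in SRF-KO OLs and 4.96 to 5.90 CPM in control OLs, was highest in SRF-KO OL replicate 4. Mga had 42.3 to 58.2 CPM in SRF-KO OLs and 44.0 to 54.2 CPM in control OLs. Mxd3 was near the limit of these libraries, at 1.20 to 3.71 CPM in SRF-KO OLs and 1.29 to 2.78 CPM in control OLs, from at most 25.6 expected counts. The 3' ends of Mxd3 and Prelid1 overlap on opposite strands, and Prelid1 had 101 to 218 CPM in SRF-KO OLs and 113 to 164 CPM in control OLs, so the low OL value of Mxd3 is uncertain. The log2 fold changes of Mnt, Mga and Mxd3 were -0.11, 0.09 and 0.29, with edgeR adjusted p of 0.918, 0.870 and 0.838. Without SRF-KO OL replicate 4 the log2 fold change was 0.01 for Myc, 0.13 for Mycn, 0.15 for Max, -0.24 for Mxd1, 0.11 for Mxd3, 0.09 for Mxi1, -0.41 for Mnt and 0.13 for Mga. The edgeR adjusted p of these 8 members then ran from 0.242 for Mnt to 0.971 for Myc.

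**Figure D2:**
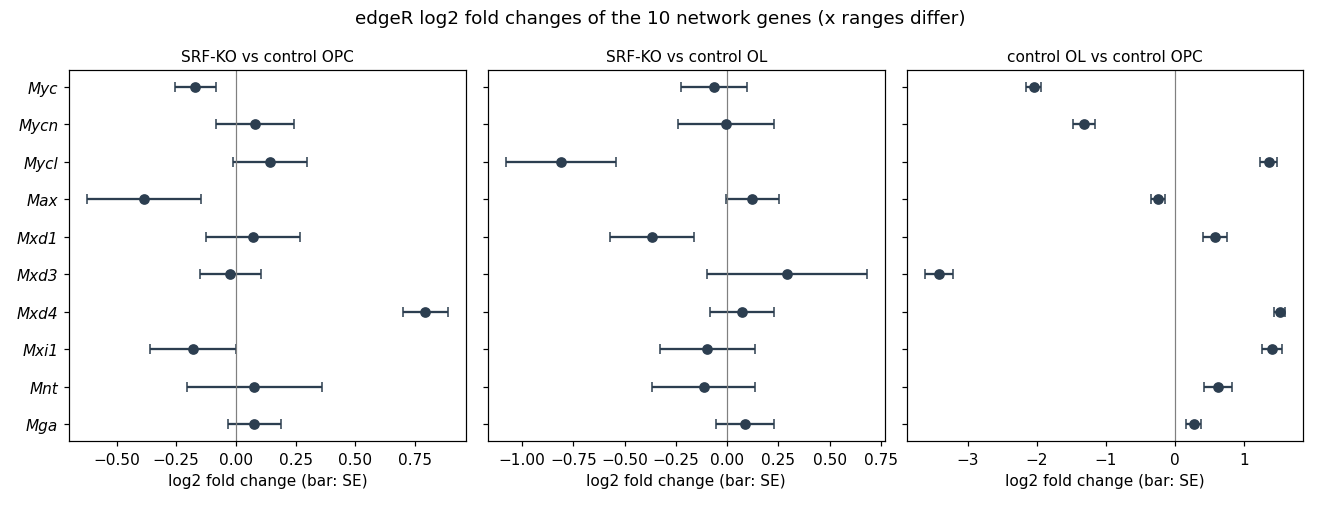
Log2 fold changes (x axis) of the 10 network genes with edgeR SE as bars, for SRF-KO over control OPCs, SRF-KO over control OLs, and control OLs over control OPCs, each panel with its own range. Mxd4 stands at 0.79 in the OPC panel and at 0.07 in the OL panel, Mycl at 0.14 and at -0.81, and in the stage panel the values run from -3.42 for Mxd3 to 1.52 for Mxd4.

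Between control OLs and control OPCs every member passed an edgeR adjusted p of 0.05, as did 79.7% of 15027 genes tested, so passing says little about the members. The OPC tables list spliced transcript lengths (in 89.8% of 8995 genes with 1 transcript and an intron) and the OL tables the whole gene span (in 90.0%), so OL counts can include intron reads, and stage and quantification cannot be told apart. Activators and partners went in both directions. Myc was at 55.5, 52.6, 39.6 and 47.0 CPM in control OLs, against 254, 248, 233 and 220.0 CPM in control OPCs, with a log2 fold change of -2.04 (SE 0.11, edgeR adjusted p = 1.26e-09). Mycn was lower as well, by a log2 fold change of -1.32 (SE 0.15, edgeR adjusted p = 3.24e-06). Mycl was higher, at 50.9 to 70.5 CPM in control OLs and 22.1 to 29.9 CPM in control OPCs (log2 fold change 1.36, SE 0.12, edgeR adjusted p = 2.76e-07). None of the 3 overlapped between the stages, and neither did 75.9% of all genes tested. The fit scaled all 8 control libraries together, so its fold changes differ from ratios of the CPM given here.

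Of the repressive partners, 5 were higher in control OLs than in control OPCs and 1 was lower, where 42.5% of all genes were higher and 37.1% lower. Mxd4 was at 83.5, 91.6, 86.2 and 77.6 CPM in control OLs, against 34.4, 34.8, 35.7 and 35.6 CPM in control OPCs, with a log2 fold change of 1.52 (SE 0.081). The same 4 control OPC libraries entered the comparison that chose Mxd4, so no p is given for it. Mxi1 was at 71.8 to 97.3 CPM in control OLs and 29.1 to 46.3 CPM in control OPCs (log2 fold change 1.40, SE 0.14, edgeR adjusted p = 7.2e-07). Mxd3 was the member with the deepest fall, to 1.29 to 2.78 CPM in control OLs against 22.0 to 26.0 CPM in control OPCs (log2 fold change -3.42, SE 0.21, edgeR adjusted p = 5.03e-09). Mxd1, Mxd4 and Mxi1, the other MXD genes, were all higher in control OLs.

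The 4 smaller stage differences depended on scaling or test. Mxd1 was higher by a log2 fold change of 0.57 (edgeR adjusted p = 0.00848) and Mnt by 0.63 (edgeR adjusted p = 0.0125), and both missed the threshold when library totals replaced TMM factors. Mga was higher by 0.27 (edgeR adjusted p = 0.0338) and stood at -0.06 with library totals. Max was lower by a log2 fold change of -0.25 (edgeR adjusted p = 0.0359) and missed the threshold in DESeq2. The median of the 15027 genes tested in this comparison was 0.10 with TMM factors, 0.17 with RLE factors and -0.24 with library totals. In DESeq2, fitted on 26653 genes without the low-count filter, the median was 0.89. That value covers a different set of genes and is not comparable with the other medians. The listed length of Max was 12.6 times as long in OL tables as in OPC tables, that of Mxi1 11.6 times, Mxd1 4.74, Mxd3 3.23, Mnt 3.23, Mga 2.78, Mxd4 1.91, Mycn 1.79, Myc 1.64 and Mycl 1.62 times. Of the 6 members with stage differences above 1 in log2 size, Mxd4, Mycn, Myc and Mycl were the ones least lengthened. A ratio of listed lengths does not measure how many intron reads were counted, and the part of quantification in these differences was not tested.

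The balance of the network was summarised per library as the mean log2(CPM + 0.5) of the 3 activators minus that of the 6 repressive partners. It was 0.31, 0.36, 0.30 and -0.59 in SRF-KO OLs, 0.53, 0.45, 0.19 and 0.42 in control OLs, 1.30, 1.20 and 0.91 in SRF-KO OPCs and 1.37, 1.17, 1.34 and 1.16 in control OPCs. By this measure knockout and control overlapped in both stages, and OLs lay below OPCs throughout. By summed TPM, given below, the OPC groups did not overlap. SRF-KO OPCs averaged 1.14 ± 0.20 (SD, n = 3) and control OPCs 1.26 ± 0.11 (SD, n = 4), a difference of -0.13, which was 0.0025 when Mxd4 was taken out of the partners. SRF-KO OLs averaged 0.10 ± 0.46 and control OLs 0.40 ± 0.14 (SD, n = 4 each), a difference of -0.30. It was -0.07 without SRF-KO OL replicate 4, the only library below 0. Control OLs minus control OPCs gave -0.87, and SRF-KO OLs minus SRF-KO OPCs gave -1.04, or -0.81 without SRF-KO OL replicate 4. With summed CPM, where Myc weighs most, the difference between the controls was -1.90. The scaling of a library cancels within its balance, apart from the 0.5 added, and cancels fully with summed CPM. OL counts can include intron reads, so stage and quantification cannot be told apart in the differences between stages. No test was made of this score, since its genes were chosen with results known.

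**Figure D3:**
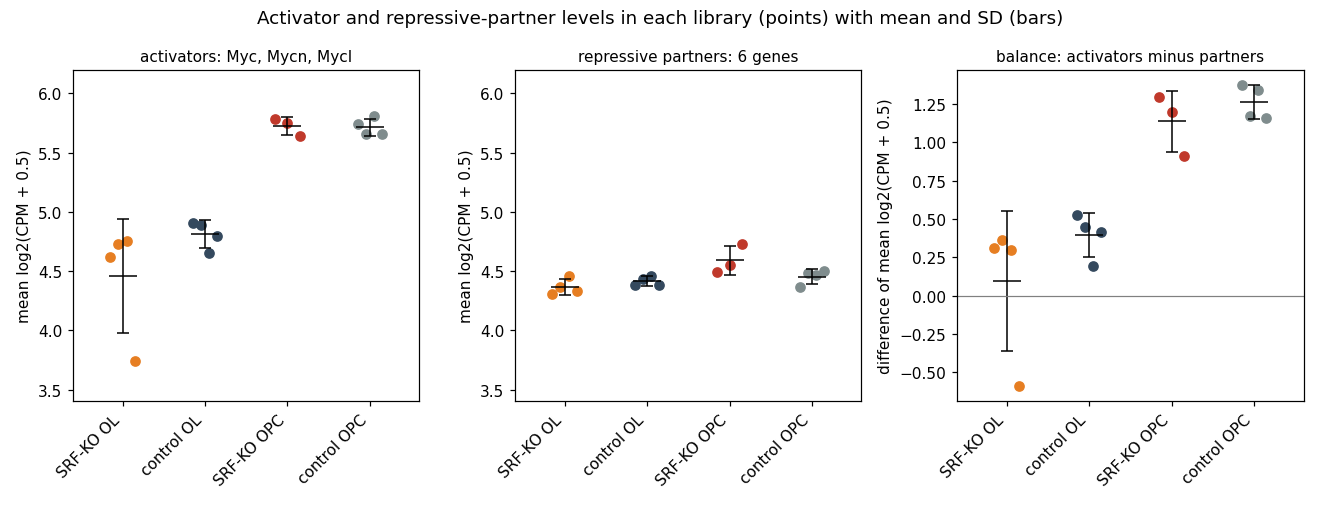
Mean log2(CPM + 0.5) of the 3 activators (left), of the 6 repressive partners (middle) and their difference (right, zero line in grey) per library, with group mean and SD as bars, for SRF-KO OLs, control OLs, SRF-KO OPCs and control OPCs. Axes do not start at 0. The right panel shows SRF-KO OL replicate 4 at -0.59 and the other OL libraries between 0.19 and 0.53, with OPCs between 0.91 and 1.37.

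The genes around the network were read from lists of its corepressors, cofactors and targets. In SRF-KO against control OPCs, edgeR called 0 genes of the 9 lists, beside 0.0678% of all genes. Targets that MYC activates lay mostly below 0 there. Those of the nucleolus and ribosome assembly had a median log2 fold change of -0.12 (19 of 25 negative, 5 at an unadjusted p under 0.05, all lower), and those of growth and metabolism -0.16 (20 of 25 negative, 1 higher and 7 lower at that p). The proliferation list had a median of -0.11 (15 of 16 negative, 2 lower at that p), and the median of all genes was -0.0013. In this comparison 11.9% of all genes had an unadjusted p under 0.05. DESeq2, which called 1.01% of genes, called Tfrc, the transferrin receptor, lower and Cdkn1a, the p21 cell cycle inhibitor that MYC represses, higher. Cdkn1a averaged 538 ± 74.2 CPM in SRF-KO OPCs (SD, n = 3) and 362 ± 57.2 CPM in control OPCs (SD, n = 4). These 2 genes were named after their values were seen.

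List medians of corepressors and cofactors in OPCs lay near 0 or slightly below it. The SIN3-HDAC list had a median of -0.01 (8 of 16 negative), the PRC1.6 list of MGA -0.13 (9 of 10), MYC coactivators -0.03 (9 of 12) and genes of MYC protein turnover -0.10 (7 of 11). At an unadjusted edgeR p under 0.05, as for 11.9% of all genes, 1 SIN3-HDAC gene was higher and 4 were lower. At that p, 1 PRC1.6 gene and 1 coactivator were lower, and 1 turnover gene was higher. Of the MLX branch, a parallel network of glucose-sensing factors, Mlx and Mlxip had enough counts to be tested, and both were slightly negative. The 7 tested of 8 genes that MYC represses had a median of -0.25 but spread from -0.66 to 0.57, with 2 higher and 2 lower at that p.

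In SRF-KO against control OLs, edgeR again called 0 genes of the 9 lists, beside 0.296% of all genes, and DESeq2 called 1, beside 1.79% of all genes. Medians lay above 0 for the nucleolar targets (0.09, 16 of 25 positive), the growth targets (0.08, 17 of 25), the proliferation list (0.22, 15 of 16) and the genes MYC represses (0.23, 6 of 8), where the median of all genes was 0.02. At an unadjusted p under 0.05, with 11.6% of all genes past it, stood among others 5 nucleolar targets (4 higher and 1 lower), 2 growth targets (1 each way), 3 repressed genes (all higher), 4 proliferation genes (all higher) and Mlx, which was higher. Without SRF-KO OL replicate 4 the medians were 0.03 for the nucleolar targets, -0.04 for the growth targets, 0.28 for the proliferation list and 0.20 for the genes MYC represses, against -0.0047 for all genes. Medians moved up with library totals, to 0.30 for both target lists, as did that of all genes, to 0.24. Without SRF-KO OL replicate 4, the genes that edgeR called included Ccna2, Ccnb1, Mcm4, Rrm2 and Rnf2, all higher, and Mycl, which was lower, in a fit that called 1.5% of all genes higher and 2.62% lower. Of these, 4 are cell cycle and replication genes from the 16 of the proliferation list, and Rnf2 is the ubiquitin ligase of PRC1.6.

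Single genes of these lists showed the following levels in OLs. Slc7a5, the amino acid transporter and growth target, averaged 6.77 ± 1.04 CPM in SRF-KO OLs and 10.9 ± 2.37 CPM in control OLs (SD, n = 4 each), a log2 fold change of -0.68 (edgeR adjusted p = 0.204). It was lower in all 4 knockout libraries than in any control library, as held in this direction for 3.89% of all genes tested. Mlx averaged 31.9 ± 1.26 CPM in SRF-KO OLs and 24.7 ± 1.38 CPM in control OLs, a log2 fold change of 0.37 (edgeR adjusted p = 0.244). Cdkn1a averaged 98.1 ± 45.3 CPM in SRF-KO OLs and 61.4 ± 11.3 CPM in control OLs, a log2 fold change of 0.67 (edgeR adjusted p = 0.367). Cdkn2b, the p15 inhibitor, had a log2 fold change of 0.59 (edgeR adjusted p = 0.323), and Mlx and Cdkn2b were each higher in all 4 knockout libraries than in any control library, as held for 4.17% of all genes.

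The pairs with the smallest p in the remaining lists stayed short of the threshold in OLs as well. Ccnb1, cyclin B1, had a log2 fold change of 0.61 (edgeR adjusted p = 0.231) and Cdk1 one of 0.48 (edgeR adjusted p = 0.304). Dkc1 and Gnl3, nucleolar proteins, had log2 fold changes of 0.33 and 0.38, and Eif4e, the cap-binding factor, 0.33. Sap30 of the SIN3 complex had 0.31, Ring1 and Cbx3 of PRC1.6 -0.42 and -0.33, the coactivators Trrap and Ruvbl1 -0.30 and 0.21, and Aurka and Gsk3b, kinases that act on MYC protein stability, 0.36 and -0.46. Mlxip had -0.14. The edgeR adjusted p of these genes ran from 0.300 for Dkc1 to 0.800 for Mlxip.

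**Figure D4:**
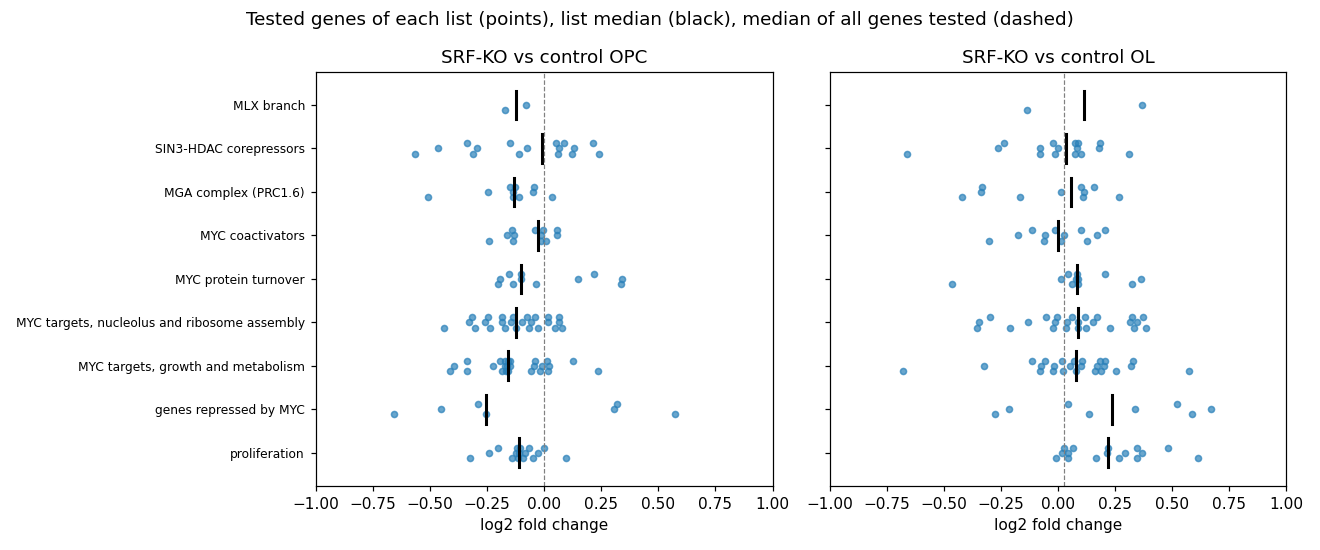
Log2 fold changes (x axis) of the tested genes of each list around the MYC network (rows) for SRF-KO over control OPCs (left) and SRF-KO over control OLs (right). Black bars are list medians and the dashed line is the median of all genes tested. The proliferation list sits at a median of -0.11 in OPCs and 0.22 in OLs, and no gene shown passed an edgeR adjusted p of 0.05.

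The direction of these lists in the 2 stages was not compared by a test. Oligodendrocyte markers (8 of 8 with counts) summed to 13940 to 19960 CPM in SRF-KO OLs and 20340 to 38790 CPM in control OLs, and Opalin, a myelin protein of mature OLs, passed the edgeR threshold as lower (0.23% of all genes did). Astrocyte markers (6 of 6) summed to 8015 to 13350 CPM in SRF-KO OLs and 16440 to 33500 CPM in control OLs. This sum did not speak for each astrocyte marker. The log2 fold changes of the 6 ran from -1.32 to 0.03, with a median of -0.16. In 1 of the 6, all knockout libraries lay below all controls. OPC markers (8 of 8) summed to 2813 to 3467 CPM in SRF-KO OLs and 3294 to 4836 CPM in control OLs. The 8 OPC markers went in both directions. Log2 fold changes were positive for 3 (Pdgfra 0.39, Cspg4 0.34 and Ptprz1 0.31). They were negative for 5, from -0.62 for Olig1 to -0.18 for Lhfpl3. The proliferation list summed to 360 to 497 CPM in SRF-KO OLs and 371 to 416 CPM in control OLs. The part of these markers in the values of Mycl and of the lists was not tested. Microglial markers summed to at most 7.74 CPM in SRF-KO OLs and 7.18 CPM in control OLs.

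Between control OLs and control OPCs the target lists differed in the same direction as Myc. All 25 nucleolar targets and all 16 proliferation genes were lower, as were 23 of 25 growth targets, where 37.1% of all genes were lower. Their median log2 fold changes were -1.87, -3.81 and -1.81, against 0.10 for all genes. Fibrillarin (Fbl), which methylates ribosomal RNA, had -3.82 and Odc1, the polyamine enzyme, -0.60. Of the genes MYC represses, 5 were higher and 1, Cdkn1a, was lower (log2 fold change -2.32, edgeR adjusted p = 6.77e-09), and Ndrg2, a differentiation gene, had 2.57. Fbl, Odc1 and Ndrg2 were named after their values were seen. Of the SIN3-HDAC corepressors 12 of 16 were lower, of MYC coactivators 10 of 12, and of PRC1.6 genes 9 of 10. Quantification differs with stage here too, so these counts describe the libraries.

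The genes most like Mxd4 across libraries were found as the highest Pearson correlations with Mxd4 of log2 CPM centred within each stage, over 15 libraries and among 8443 genes. They were Gsta4 (r = 0.93), a glutathione transferase, Cryab (0.91), a small heat shock protein, Usp2 (0.90), a deubiquitinase, Dmrtb1 (0.89) and Hes6 (0.89), a bHLH factor of neural differentiation. Gsta4 averaged 33.6 CPM in SRF-KO OLs, 27.9 CPM in control OLs, 21.1 CPM in SRF-KO OPCs and 11.2 CPM in control OPCs. The points share libraries and the knockout difference that chose Mxd4, so the values are a description. Among the members measured at that level, r with Mxd4 was -0.53 for Myc, -0.59 for Max, -0.51 for Mxi1, -0.23 for Mycl, -0.16 for Mxd1 and -0.01 for Mga. All correlations of this paragraph include SRF-KO OL replicate 4, which stood apart in Mxd4, Mxi1 and Mycl. They also include SRF-KO OPC replicate 2, which stood apart in Max. No r without these libraries is given.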

How the data were processed

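Per the labels' protocols, polyA RNA was made into unstranded Smart-seq2 libraries and sequenced on a NextSeq550 as single 63-base reads. Per the submitters' processing notes the tools were bcl2fastq, STAR and RSEM (no versions), and the builds GRCm38 and Rnor_6.0 (no roles). All gene IDs are mouse. The deposited expected counts are the authors' RSEM estimates, which share out multiply matching reads. The deposited TPM values divide them by effective length, and were compared only within OPCs. The deposited FPKM values were not used. Groups follow sample titles.

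After rounding, expected counts went into edgeR 4.0.16 (filterByExpr, TMM, quasi-likelihood F-test, two-sided, Benjamini-Hochberg over all genes tested, threshold 0.05) in R 4.3.3, with DESeq2 1.42.0 as an alternative. Each knockout comparison used its own stage. SE was derived from the fold change and its F statistic, so it is no separate measure of spread. The code was tested on simulated data. Symbols matched 45143 of 45706 IDs, and coordinates are from GENCODE M21. Members and lists were chosen with earlier results of these data known. Named genes are all members, Srf, from each list those with adjusted p under 0.05 in OLs or else the 2 smallest p, and the 5 genes most correlated with Mxd4 at mean log2 CPM of 3 or more. Any other list gene in the text was picked with its values in view. The values of 1 list gene are not reported here. Alternatives were other scalings, no filter, a replicate block, length offsets, pseudocounts and leaving out each library. Precision is limited by the number of libraries, and intron reads may enter OL counts.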

Additional observations from a re-analysis of the deposited data

Results flagged for a closer look

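In groups of 4 libraries, 33 sets of values (the members and the balance) were checked for a library whose gap to the nearest other was too large a share of the group's range by Dixon's test at the 95% level. Chance flags about 1 in 20 such groups. Of the 6 found, 4 were SRF-KO OL replicate 4. It had 14.3 CPM of Mycl, with the other SRF-KO OLs at 39.1 to 41.4 CPM, and 41.9 CPM of Mxi1, with the others at 90.9 to 94.9 CPM. It had 116 CPM of Mxd4, with the others at 79.2 to 82.2 CPM. Its balance of activators over partners was -0.59, with the others at 0.30 to 0.36. Control OPC replicate 2 had 22.1 CPM of Mycl, with the other control OPCs at 29.3 to 29.9 CPM. Control OL replicate 4 had 54.2 CPM of Mga, with the other control OLs at 44.0 to 44.5 CPM. The cause of these values was not tested.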

How the results depend on the processing

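Counts of called genes moved with the setting, while Mxd4 in OPCs stayed at 0.73 to 0.83 in every fit that left out a library. In SRF-KO against control OPCs the 9 calls (3 higher, 6 lower) became 121 in DESeq2 (63 higher, 58 lower), 101 with no low-count filter, 28 with length offsets and 1 to 4 when 1 library was left out, and library totals gave 6 higher and 7 lower. In OLs the 45 calls (10 higher, 35 lower) became 289 in DESeq2, 74 with library totals (39 higher, 35 lower), 129 with no filter, 72 with length offsets and 7 to 636 when 1 library was left out, the highest without SRF-KO OL replicate 4. Members called in OLs were 0 to 1 in those fits. The replicate block gave 2 calls in OPCs and 5 in OLs. Deviations of same-numbered libraries correlated at r of -0.014, 0.198 and -0.008 in OPCs and of -0.006, -0.416, -0.116 and -0.44 in OLs. Pairs with different numbers ran from -0.155 to 0.121 in OPCs and from -0.436 to 0.473 in OLs. The labels do not say that a shared number means a shared culture, and these correlations cannot settle it. In control OLs against control OPCs library totals gave 5119 higher and 6843 lower in place of 6390 and 5580, and members called were 7 with library totals and 8 to 10 when 1 library was left out. Log2 fold changes near 0 in OLs changed sign. With library totals Myc had 0.16, Mycn 0.20, Mxi1 0.13 and Mnt 0.10, as Mga had -0.06 between stages. Leaving out 1 library gave -0.15 to 0.01 for Myc, -0.17 to 0.13 for Mycn, -0.10 to 0.13 for Mxd4, -0.18 to 0.09 for Mxi1, -0.41 to 0.06 for Mnt and -0.0012 to 0.17 for Mga in OLs, and -0.92 to -0.59 for Mycl, 0.07 to 0.15 for Max, -0.59 to -0.24 for Mxd1 and 0.07 to 0.57 for Mxd3. The balance difference of SRF-KO minus control OPCs was -0.32 with summed CPM, 0.0025 without Mxd4 and -0.21 to -0.01 when 1 library was left out. In OLs that range was -0.39 to -0.07. Control OLs minus control OPCs gave -1.90 with summed CPM, -0.61 without Mxd4 and -0.91 to -0.80 by leaving out libraries, and SRF-KO OLs minus SRF-KO OPCs gave -2.01 with summed CPM and -1.15 to -0.81. The cause of these shifts was not tested. Length offsets were not run between stages, where listed lengths differ. Low counts limit Mxd3 in OLs and Mnt.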
